A study of Mus musculus with 6 samples.

Results

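The Src family kinases, Syk and Btk are the non-receptor tyrosine kinases through which blood cells pass signals from integrins, Fc receptors and antigen receptors. The genes described are Fgr, Lyn, Fyn, Src, Yes1 and Lck of the Src family, together with Syk and Btk. They were chosen by name, and all 8 were found among the 36083 genes of the per-library table by their mouse symbols. RNA was measured in lineage-negative (Lin-) blast crisis chronic myeloid leukemia (bcCML) cells. The cells came from c-Kit+ Lin- Sca1+ (KLS) progenitors of B6 mice that were WT or Sdc1-/-. In both groups the progenitors were infected with retroviruses for BCR-ABL and for NUP98-HOXA9, and cells with both oncogenes were transplanted into NSG mice, which lack lymphocytes of their own. The paper's methods instead name irradiated B6.SJL mice for primary bcCML transplants, so whether the recipients lacked lymphocytes is not certain. All recipients were killed at the same time, and Lin- cells were sorted from their spleens. Each group has 3 libraries. The labels give no ages and do not say whether the libraries of a group are separate mice. A supplementary legend on RNA-seq of Lin- WT bcCML cells speaks of technical replicates, so every SD and p-value below may cover technical variation only, not variation between mice.

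The deposited values are TPM, a transcript abundance corrected for length, from kallisto that were rescaled between libraries, so their sums ran from 944973 to 1058263. Values of different genes are per length and can be compared within a library. How many reads stand behind a value is not known. Sdc1, the targeted gene, stood at 1.75, 1.21 and 1.51 in the WT-labelled libraries and at 3.85, 3.8 and 4.12 in those labelled Sdc1-/-. It was thus higher under the knockout label (difference 0.99, adjusted p = 0.00012 from limma), so the groups are named by their labels and every direction below is one between labels. The knockout disrupts the signal peptide of the protein, and per-gene values cannot tell an intact from a disrupted transcript. The progenitor genes Kit and Cd34 were present in every library, Kit between 12.2 and 14.9 and Cd34 between 39.3 and 48.8. Y-linked genes also separated the groups: 4 of them summed to between 0.276 and 0.308 in the WT-labelled libraries and to between 68.1 and 78.4 in those labelled Sdc1-/-. Sex and label thus coincide, so the part of sex in any difference below cannot be told apart from that of the label.

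Src family kinases are anchored to the inner face of the membrane and are held in an inactive shape by phosphorylation of a tyrosine in their tail, which the kinase Csk adds and the phosphatase CD45 (encoded by Ptprc) removes. Once active, they phosphorylate paired tyrosines in the ITAM motifs of receptor adaptors, to which Syk binds. Syk and the Src family then activate Btk and phospholipase C. Lyn and Fgr are members used by myeloid cells, Lck and Fyn those used by T cells, and Src and Yes1 are broadly expressed outside blood. In BCR-ABL leukemia, Lyn is a known partner of the fusion kinase.

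Because the Src family genes are close relatives, the transcripts of GENCODE M21 (GRCm38) were first compared for words of 31 bases, the default unit by which kallisto assigns reads. No word was shared between any of the 8 genes. Across the 15 pairs among Src, Yes1, Fyn, Fgr, Lyn and Lck, the longest run of bases in common was between 14 and 23 bases long. The longest runs are shown here since they mark stretches in which these kinases are most alike, and both lie in coding exons. Fgr, at chr4:132999976-133000005 on the plus strand (exon 12), and Src, at chr2:157469458-157469487 on the plus strand (exon 13), had 23 bases in common. A run of the same length was found in Lyn, at chr4:3781000-3781029 on the plus strand (exon 11), and Lck, at chr4:129551754-129551783 on the minus strand (exon 11), which moved in opposite directions. Capitals mark the bases in common and lower case the bases around them.
Fgr: gacGTGTGGTCCTTTGGGATTCTGCTcact
Src: gatGTGTGGTCCTTTGGGATTCTGCTgacc
Lyn: atgTGCAAGATTGCAGACTTTGGCCTcgcg
Lck: agcTGCAAGATTGCAGACTTTGGCCTggcg

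Words shared with genes outside the family were found in 3 of the 8 genes. Of the 4065 words of Lyn, 22.8% occur in other genes. Of these, 695 are shared with Gm11787, listed at or below 0.115 in every library, and 219 with Gm26857, whose exons overlap those of Lyn on the opposite strand and which was not analysed here. Yes1 shares 9.74% of its words and Syk 0.0319%. Fgr, Fyn, Lck, Src and Btk share 0 words with any other annotated gene.

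The order of the mRNA levels differed little at its ends between the groups. In the WT-labelled libraries, Btk was highest, between 91.4 and 103.2. It was followed by Lyn between 53.9 and 55.9, Syk between 31.9 and 32.6, and Fyn between 17.2 and 21.8. Fgr (7.13 to 7.28) and Lck (6.05 to 8.08) overlapped and could not be placed in order. Src and Yes1 were near the floor of the table, with highest values of 0.167 and 0.0549 among the WT-labelled libraries. In the libraries labelled Sdc1-/-, Btk still led, between 98.6 and 102.6, and Lyn followed between 33.5 and 34.0. Syk (30.3 to 31.1) and Fyn (28.4 to 30.5) now overlapped. Lck (13.3 to 14.7) lay above Fgr (2.79 to 2.98) in every one of these libraries. All other neighbours in both orders were apart in every library.

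**Figure D1:**
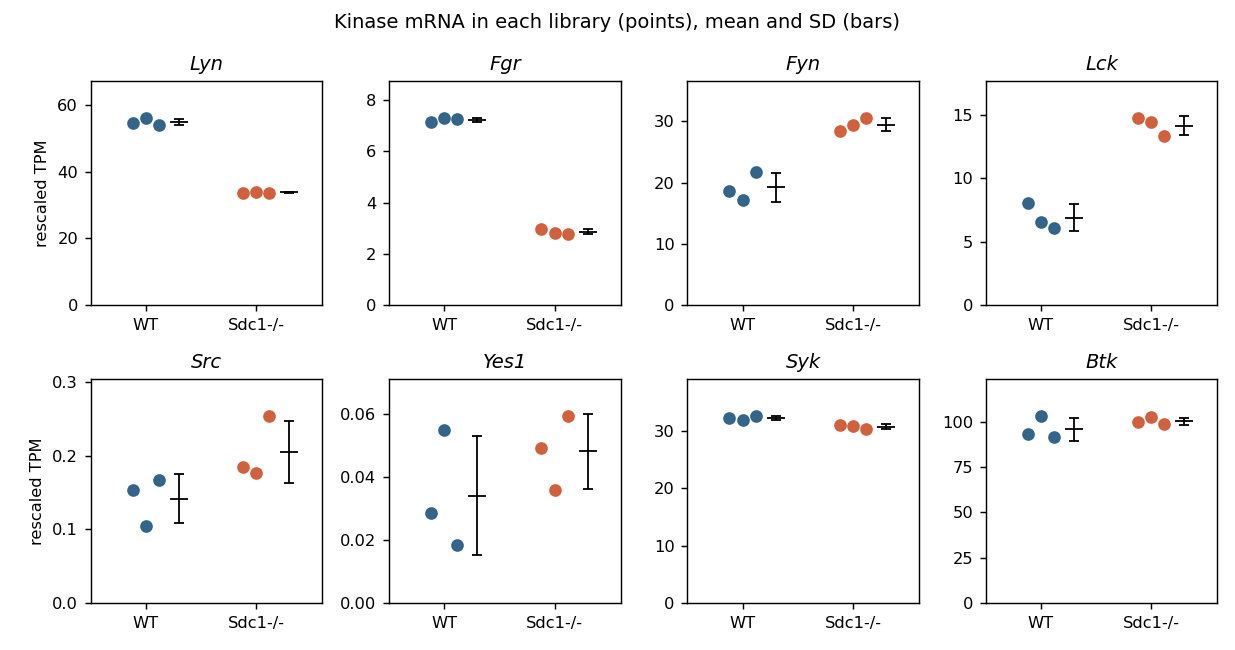
Rescaled TPM (y axis, linear and starting at 0, with its own range for each gene) of the 8 kinase genes in the 3 WT-labelled libraries (blue) and the 3 labelled Sdc1-/- (orange); black bars give the mean and SD. Lyn and Fgr are lower and Fyn and Lck higher in every library labelled Sdc1-/-, while the libraries of the 2 groups overlap for Yes1 and Btk.

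Each gene was compared between the groups with limma on log2(value + 1), fitted over 12155 genes whose mean reached 1 and adjusted over all of them by Benjamini-Hochberg. Differences below are on that scale, Sdc1-/- minus WT, and the scale understates the change of low genes. Of the 8 genes, 6 were high enough to be tested. With 0.05 as the limit on the adjusted p, Fgr and Lyn fell, Fyn and Lck rose, and Syk and Btk were not called. Over all genes tested 60.7% were called, 29.3% higher and 31.3% lower, so 4 calls among 6 genes are close to the background. The groups did not overlap in 5 of the 6 genes, against 66.7% of all genes tested.

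Among the myeloid members, Lyn both starts signals through ITAMs and restrains them through inhibitory receptors. Lyn mRNA was at 54.6, 55.9 and 53.9 in the WT-labelled libraries and 33.5, 34.0 and 33.7 in those labelled Sdc1-/-. The groups were far apart relative to their spread, and the difference was -0.68 (standard error 0.0305, adjusted p = 4.6e-06 from limma). As many as 6.43% of all genes tested fell at least that far. Fgr, which acts with Lyn in integrin and Fc receptor signaling of neutrophils and monocytes, went from 7.13, 7.28 and 7.24 to 2.98, 2.82 and 2.79. All libraries labelled Sdc1-/- were below all those labelled WT, with a difference of -1.09 (standard error 0.0505, adjusted p = 5.6e-06 from limma), a fall that 2.54% of all genes tested matched or passed. Within each library, the ratio of Fgr to Lyn was between 0.130 and 0.134 under the label WT and between 0.0829 and 0.0888 under the label Sdc1-/-. That ratio does not depend on how libraries were scaled, and its groups did not overlap (two-sided exact permutation test, p = 0.1, the smallest that 3 against 3 libraries allow).

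The members best known from T cells moved the other way. Lck, which starts signaling from the T-cell receptor, was at 8.08, 6.54 and 6.05 in the WT-labelled libraries and at 14.7, 14.4 and 13.3 in those labelled Sdc1-/-. The lowest library labelled Sdc1-/- was above the highest labelled WT, and the difference was 0.95 (standard error 0.0967, adjusted p = 0.00017 from limma). A rise of that size or more was seen in 2.28% of all genes tested. Fyn, which is used in T cells, brain and many other tissues, was at 18.7, 17.2 and 21.8 and then at 28.4, 29.5 and 30.5. Its groups were separate as well, although the spread in the WT-labelled libraries was wider than for Lyn, and the difference was 0.60 (standard error 0.0818, adjusted p = 0.00070 from limma). As many as 6.97% of all genes tested rose at least as far as Fyn. Src and Yes1 remained below the minimum mean. Src was at 0.154, 0.104 and 0.167 and then at 0.185, 0.177 and 0.254, which did not overlap, and a fit of all genes gave it an adjusted p of 0.16 from limma. For Yes1 the highest values were 0.0549 and 0.0592 in the 2 groups, which overlapped, and the same fit gave an adjusted p of 0.48 from limma.

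Downstream of the Src family the values were flatter. Syk, which binds phosphorylated ITAMs, was at 32.3, 31.9 and 32.6 in the WT-labelled libraries and at 31.1, 30.8 and 30.3 in those labelled Sdc1-/-. The groups did not overlap, but the difference of -0.068 was not called (95% interval -0.14 to 0.0054, adjusted p = 0.096 from limma). After scaling libraries to a common sum of 1000000 the difference was 0.076 (adjusted p = 0.063 from limma), so the sign for Syk depends on the scaling. That scaling moved the median difference of all genes tested from -0.0097 to 0.12, and Syk lay below the median under both. Btk, a Tec family kinase needed for B-cell development and also used by myeloid cells, was at 93.2, 103.2 and 91.4 and then at 99.7, 102.6 and 98.6. These overlapped, and the difference was 0.065 (95% interval -0.053 to 0.18, adjusted p = 0.29 from limma). Btk was called higher, however, after scaling to that common sum (difference 0.21, adjusted p = 0.0080 from limma), under quantile normalization (0.15, adjusted p = 0.029) and without WT replicate 2 (0.12, adjusted p = 0.025). At the common sum, 5290 of all 12150 genes tested were called higher. Btk is X-linked, and the sex-linked genes differed between the groups. With the values as deposited, the 411 X-linked genes tested had a median difference of -0.015, 106 called higher and 120 lower. Over all genes tested the median was -0.0097, with 29.3% called higher and 31.3% lower. Such counts over a chromosome do not speak to a single gene. As for every other gene, the part of sex in the Btk values cannot be told apart from that of the label. It was not tested.

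**Figure D2:**
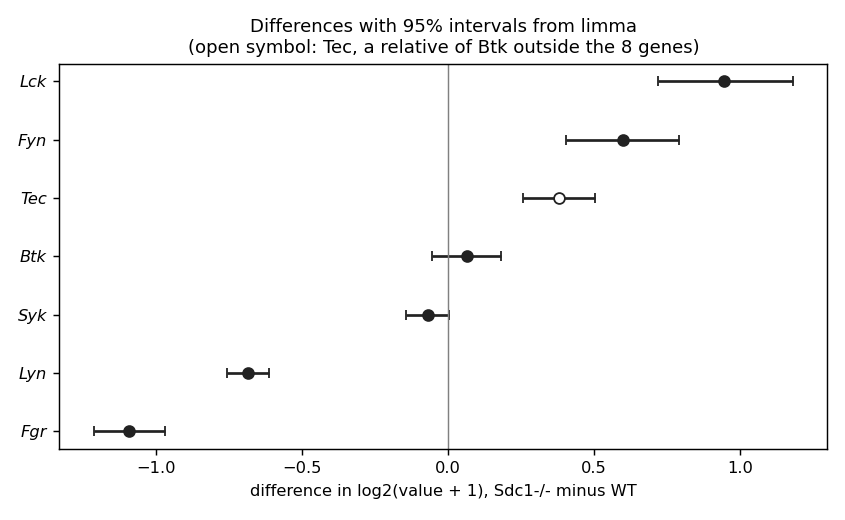
Difference in log2(value + 1) between the libraries labelled Sdc1-/- and WT (x axis) with 95% intervals from limma, for the 6 tested genes (filled) and for Tec, a relative of Btk (open). Fgr and Lyn lie below 0, Tec, Fyn and Lck above 0, and the intervals of Syk and Btk include 0.

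Shares of the family were computed next, since a share within a library is free of the scaling between libraries. The values of Lyn, Fgr, Fyn, Lck, Src and Yes1 summed to 88.7, 87.0 and 89.2 in the WT-labelled libraries and to 79.8, 80.9 and 80.6 in those labelled Sdc1-/- (two-sided exact permutation test, p = 0.1). After setting libraries to a common sum the totals were 83.8, 82.8 and 85.0 against 83.9, 85.0 and 85.3, which overlapped (p = 0.3 by the same exact test). These totals cover the 6 genes only and not the whole family. Lyn and Fgr together made up 69.6%, 72.6% and 68.6% of the total in the WT-labelled libraries and 45.7%, 45.5% and 45.2% in those labelled Sdc1-/-. Fyn and Lck together made up 30.2%, 27.2% and 31.2% and then 54.0%, 54.3% and 54.4%. Which genes to add up was chosen after their values were seen.

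Singly, the share of Lyn was 62.1% ± 1.93 (SD, n = 3) and then 41.9% ± 0.116 (SD, n = 3), and that of Fyn 21.8% ± 2.41 and then 36.6% ± 1.16. Lck went from 7.8% ± 1.19 to 17.6% ± 0.979, and Fgr from 8.17% ± 0.17 to 3.56% ± 0.148 (SD, n = 3 in each group). For each of these 4 genes no library of one label reached the values of the other, and the two-sided exact permutation test gave p = 0.1, the smallest it can give, and 0.12 after Benjamini-Hochberg adjustment over the 6 shares. The design cannot reach 0.05 by this test.

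**Figure D3:**
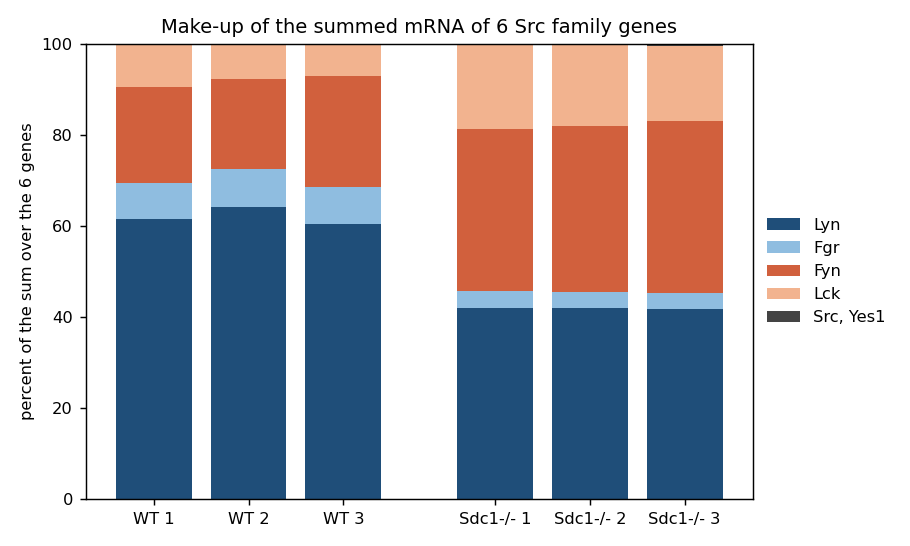
Percent of the summed value of 6 Src family genes (y axis) that each gene contributes in each of the 6 libraries. Blue parts are Lyn and Fgr, which make up between 68.6% and 72.6% under the label WT and between 45.2% and 45.7% under the label Sdc1-/-; orange parts are Fyn and Lck, and Src and Yes1 are almost too small to see.

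Marker genes show which cells the libraries could hold. In bulk RNA, fewer cells of a type and less RNA per cell cannot be told apart. Lower and higher genes of the marker lists are counted by their calls. These counts are to be read against 31.3% called lower and 29.3% higher over all genes tested. The 12 genes of maturing neutrophils, which use Fgr, were all lower in the libraries labelled Sdc1-/-, with sums between 14582.3 and 15669.5 under the label WT and between 5419.2 and 5598.2 under the label Sdc1-/-. Of 10 tested monocyte and macrophage genes 9 were lower and 1 (Cx3cr1, named after its value was seen) was higher, and the sums were between 555.2 and 578.5 and between 248.6 and 256.4. Mast cell and basophil genes were lower in 7 of 8, with sums of 786.1 to 815.9 and of 373.7 to 383.4. The erythroid list had 6 of 8 genes lower and 2 (Klf1 and Epor) higher. The megakaryocyte and platelet list had 5 lower and 2 (Pf4 and Vwf) higher of 7, and the stem and progenitor list 4 lower and 3 (Kit, Myb and Meis1) higher of 8. The sort for Lin- cells removes cells that carry Gr1, CD11b or TER119 on the surface, and the part of these marker genes in the falls of Lyn and Fgr was not tested.

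For Lck and Fyn the lists of interest are those of lymphocytes. Of 18 T and NK cell genes, 12 were below 1 in every library. The list summed to between 350.1 and 361.2 under the label WT and to between 291.6 and 305.0 under the label Sdc1-/-, most of it Nkg7. Cd3e was listed at 0 in all 3 WT-labelled libraries and reached at most 0.0382 in the others, where Lck was between 13.3 and 14.7. Cd3g, Cd247, Cd4, Cd8a, Cd5 and Cd28 were below 0.2 in every library. Of the 6 genes of that list that could be tested, 4 were lower (among them Nkg7, Gzma and Prf1, named after their values were seen) and none higher in the libraries labelled Sdc1-/-. At an unadjusted p under 0.05 in limma, 1 gene was higher, Trac, which encodes the constant region of the T-cell receptor alpha chain. It was at 0.924, 0.834 and 1.51 and then at 1.6, 1.4 and 1.96 (difference 0.35, adjusted p = 0.068 from limma). Cd3d was at 0.6, 0.225 and 0.872 and then at 0.606, 0.75 and 0.738. The part of T cells in the values of Lck and Fyn was not tested. Zap70, the Syk relative of T cells, was at 0.342, 0.256 and 0.434 and then at 0.601, 0.433 and 0.452, which overlapped. Of the 10 B-cell genes, 9 were below 1 in every library, including Ms4a1, Pax5 and Blk, where Btk was at 91.4 or more. That list summed to between 2.27 and 3.09 and to between 2.05 and 2.68, and Cd79b, the gene left in it, was not called. The neutrophil, mast cell, B-cell, regulator and ITAM lists also had no gene called higher by limma, and in these 0 genes were higher at an unadjusted p under 0.05, unlike in the T and NK list with Trac.

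Genes with the most similar profile were sought for the 4 called members, among 8965 other genes with a mean of at least 5, by the root mean square distance of log2(value + 1) over the 6 libraries after subtracting each gene's own mean. Closest to Fgr were Emb, Ccl9 and Hba-a1, with distances of 0.023, 0.027 and 0.027. Lyn was matched most closely by Serpinb1a, Tsc22d3 and Itgb3, at 0.015, 0.016 and 0.016. For Fyn the nearest were Trip6, Pgghg and Cd1d1, at 0.056, 0.057 and 0.062, and for Lck Usp21, Trrap and Adgrl1, at 0.036, 0.071 and 0.075. With 6 libraries in 2 groups, such profiles are set mainly by the difference between the groups.

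Other cytoplasmic tyrosine kinases were a list of 16 genes, of which 9 were tested, 4 called lower and 2 higher, with a median difference of -0.18 against -0.0097 over all genes tested. Over all genes tested 60.7% were called, 31.3% lower and 29.3% higher, so the calls in this list are close to the background. With the values as deposited, counts of the lists that follow are to be read against the same shares. The lower kinases of this list included Fes and Csk, and the higher ones were Tec and Abl2, the latter named after its values were seen. Fes, a kinase of myeloid cells, fell from 32.6 ± 0.505 to 24.3 ± 1.29 (SD, n = 3 in each group, difference -0.41). Tec, a relative of Btk, rose from 12.9 ± 0.621 to 17.1 ± 0.748 (difference 0.38, adjusted p = 0.00067 from limma). Csk, the negative regulator of the family, was the most abundant at 221.3, 214.9 and 209.3 and then 190.2, 183.7 and 182.3, a difference of -0.21 (adjusted p = 0.0013 from limma). Its call was lost after scaling to a common sum of 1000000 (difference -0.066, adjusted p = 0.099 from limma), where the median of all genes tested was 0.12. Relative to the sum of the 6 Src family members in the same library, Csk was 2.49, 2.47 and 2.35 times the sum under the label WT and 2.38, 2.27 and 2.26 times under the label Sdc1-/-, which overlapped (two-sided exact permutation test, p = 0.2).

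Regulators of the Src family, 19 genes with Csk among them, had 18 tested, of which 12 were lower and none higher, and a median difference of -0.25. With a library sum of 1000000 the counts were 7 lower and 3 higher. Over all 12150 genes tested at that sum, 2367 were lower and 5290 higher. Ptpn1, a phosphatase of the endoplasmic reticulum that acts on many tyrosine kinases, fell most, from 51.8 ± 1.10 to 26.1 ± 0.993 (SD, n = 3 in each group, difference -0.96). Ptpn22, a phosphatase that works with Csk, went from 11.1 ± 1.21 to 6.17 ± 0.876, and Pag1, the membrane adaptor that recruits Csk, from 7.38 ± 0.182 to 4.36 ± 0.123 (SD, n = 3 in each group). Smaller falls were those of Ptpn6, the phosphatase SHP-1 that ITIM receptors recruit (difference -0.43), Ptprj, which activates the family (-0.43), and Nmt1, which attaches the fatty acid that anchors it to membranes (-0.29). Ptprc, the gene of CD45, was at 25.8, 27.8 and 27.2 and then at 21.6, 23.8 and 23.0 (difference -0.23, adjusted p = 0.0053 from limma, and -0.089 with adjusted p = 0.16 at a library sum of 1000000).

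Upstream of Syk, 12 of the 18 genes for ITAM adaptors and their receptors were tested, and 11 were lower and none higher, with a median difference of -0.89. Tyrobp, the adaptor DAP12, was at 217.7, 206.8 and 210.6 under the label WT and at 71.5, 67.6 and 72.3 under the label Sdc1-/- (difference -1.57, adjusted p = 6.5e-07 from limma). Fcer1g, the Fc receptor gamma chain, fell from 244.9 ± 5.04 to 134.2 ± 3.69 (SD, n = 3 in each group, difference -0.86). The largest fall was that of Clec5a, a receptor coupled to DAP12, from 12.1 ± 1.28 to 2.29 ± 0.0906 (difference -1.99). The Fc receptors Fcgr4 and Fcgr3 differed by -1.53 and -1.20, and Trem3, another receptor coupled to DAP12, by -0.92.

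Receptors with ITIM motifs, which Src family kinases phosphorylate so that they recruit inhibitory phosphatases, had 17 of 19 genes tested. Of these, 15 were lower and 1 was higher, with a median difference of -1.20. Cd33, a myeloid sialic acid receptor, fell from 47.5 ± 0.982 to 13 ± 1.34 (SD, n = 3 in each group, difference -1.79, adjusted p = 3.1e-06 from limma). Pirb, an inhibitory receptor of myeloid cells, went from 28.5 ± 0.177 to 9.44 ± 0.276 (difference -1.5). Differences of Clec4a2, Cd300lf, Fcgr2b and Pilra were -1.65, -1.53, -1.32 and -1.29. The higher gene was Cd72 (named after its values were seen), known from B cells, at 5.6 ± 0.459 and 8.92 ± 0.445 (SD, n = 3 in each group). An antibody screen in the paper also found the CD72 protein on bcCML cells. The ITAM and ITIM lists hold genes of neutrophils and monocytes, and the neutrophil list above was lower in the same libraries. The part of such cells in the ITAM and ITIM differences was not tested.

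Substrates and adaptors below the kinases were mixed. Of 41 genes 37 were tested, 23 were lower and 6 higher, and the median difference was -0.21. At a library sum of 1000000 there were 15 lower and 12 higher. These are to be read against 2367 lower and 5290 higher among the 12150 genes tested at that sum. Nedd9, a docking protein of adhesion signaling, differed by -1.08, Gab2, an adaptor that BCR-ABL signaling uses, by -0.88, Sla, an adaptor that dampens receptor signaling, by -0.88, Pik3ap1, which links to PI3K, by -0.86, and Dok3, an inhibitory adaptor, by -0.85. Ptk2, the focal adhesion kinase, rose from 4.67 ± 0.263 to 7.50 ± 1.37 (SD, n = 3 in each group, difference 0.57, adjusted p = 0.0050 from limma). Plcg2, the phospholipase that Syk and Btk activate, was at 23.5, 22.2 and 22.7 and then at 22.9, 21.9 and 22.6 (difference -0.022, adjusted p = 0.65 from limma), and Vav1 at 45.0, 43.7 and 44.5 and then at 46.7, 45.3 and 45.0 (0.039, adjusted p = 0.32). Both overlapped between the groups and were named after their values were seen. At a library sum of 1000000 both were called higher, with differences of 0.12 and 0.19. The median difference of all genes tested at that sum was itself 0.12. Blnk, the adaptor through which B cells connect Syk to Btk, was at most 0.0718 in any library.

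**Figure D4:**
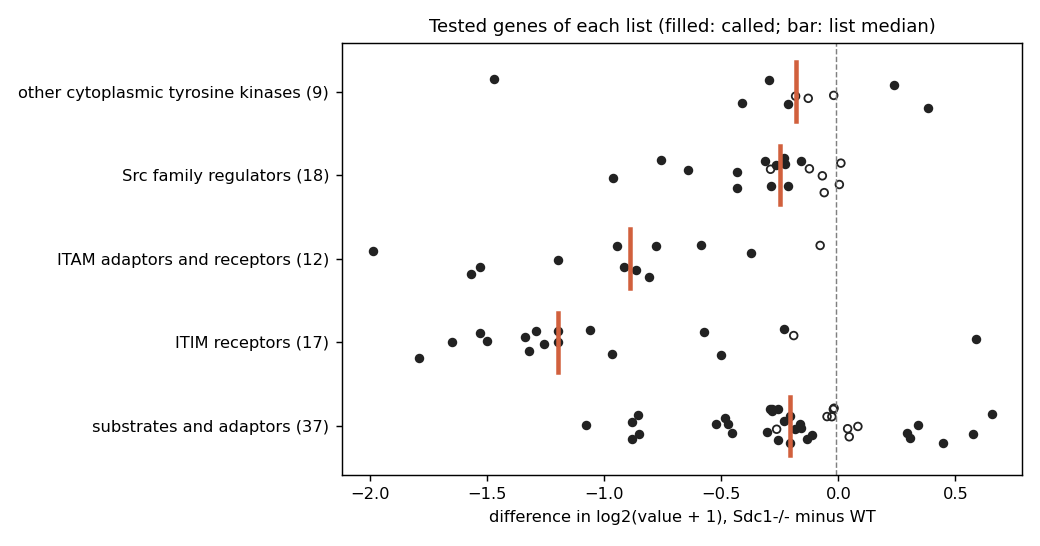
Difference in log2(value + 1), Sdc1-/- minus WT (x axis), of each tested gene of 5 lists around the kinases, with the number tested in parentheses, filled symbols for called genes, orange bars for list medians and a dashed line for the median of all genes tested (-0.0097). The ITAM and ITIM lists have medians of -0.89 and -1.20, and the others lie between -0.25 and -0.18.

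The values of Syk and Btk moved with the scaling of the libraries, and the call of Btk also with WT replicate 2, as given above. Scaling libraries to a common sum of 1000000 moved the median difference of all genes from -0.0097 to 0.12, and the share of lower genes among all called genes from 51.7% to 30.9%. The list medians moved with it, to -0.041 for the other cytoplasmic tyrosine kinases, -0.11 for the regulators, -0.062 for the substrates and adaptors, -0.76 for the ITAM list and -1.1 for the ITIM list, each to be read against the all-gene median of 0.12. Fgr, Lyn, Fyn and Lck kept their calls and directions there, at -0.97, -0.54, 0.74 and 1.08.

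**Figure D5:**
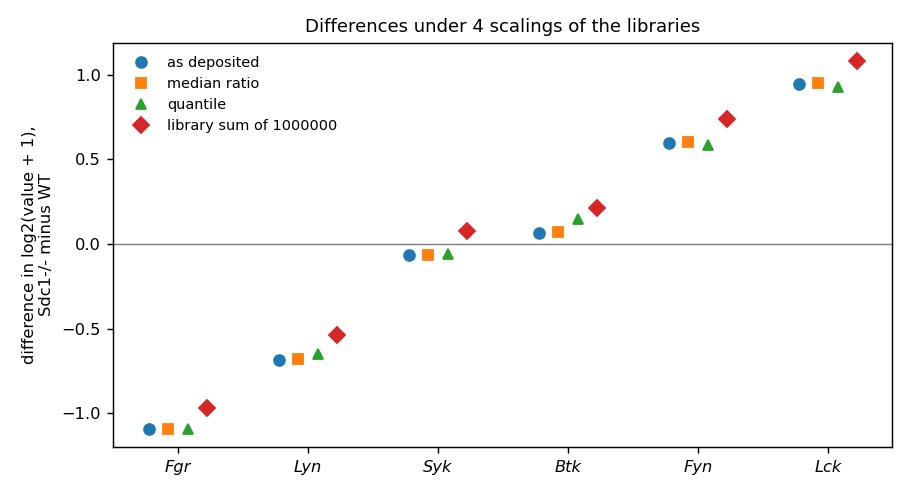
Difference in log2(value + 1), Sdc1-/- minus WT (y axis), of the 6 tested genes with the values as deposited, after median ratio scaling, after quantile normalization and after scaling to a common sum of 1000000. Fgr and Lyn stay below 0 and Fyn and Lck above 0 under all 4, Btk stays above 0, and Syk is above 0 only with the common sum. The median of all genes tested is 0.12 with the common sum and -0.0097 as deposited.

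Fgr lies on chromosome 4 of GRCm38 (132974095 to 133001910, plus strand), Lck on the same chromosome (129548344 to 129573641, minus strand), and Lyn near its start (3678115 to 3813122, plus strand). Because Fgr fell furthest and Lck rose most among the 8 genes, the 200 bases before their RefSeq start sites (GRCm38.p6) are printed from the promoter table, in which Lyn has no entry. The Fgr bases are chr4:132973895-132974094, and those of Lck, before the first of its 2 start sites, are chr4:129573642-129573841 on the minus strand. Capitals mark GAGGAA, a core bound by the myeloid ETS factor PU.1, or TGTGGT, a core bound by RUNX factors, each on either strand.
Fgr: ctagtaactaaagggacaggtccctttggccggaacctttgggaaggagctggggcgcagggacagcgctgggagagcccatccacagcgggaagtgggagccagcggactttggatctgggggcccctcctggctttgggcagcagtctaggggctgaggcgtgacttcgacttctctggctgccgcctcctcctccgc
Lck: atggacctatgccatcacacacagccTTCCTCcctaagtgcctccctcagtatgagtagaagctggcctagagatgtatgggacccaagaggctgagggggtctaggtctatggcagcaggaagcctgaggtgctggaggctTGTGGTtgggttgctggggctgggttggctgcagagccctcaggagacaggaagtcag

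The Lck window held GAGGAA on the opposite strand at position -174 and TGTGGT at position -58 relative to the start site, while the window before the other Lck start site (chr4:129558373-129558572, minus strand) and the Fgr window each held 0 matches. Of all 32851 windows of that length in the promoter table, 19.0% hold GAGGAA and 11.2% TGTGGT on either strand. Among the other members, GAGGAA also stood before Src (position -108) and before a Syk start site (position -9), and neither gene was called. Only these exact strings were searched, so other forms of either core were not counted. Values were summed per gene, so the start site in use cannot be told from them.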

How the data were processed

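RNA-seq libraries of Lin- bcCML cells, 3 labelled WT and 3 labelled Sdc1-/-, were grouped by their titles. The authors assigned single reads of stranded mRNA libraries to transcripts with kallisto and summarized them per gene with sleuth (0.30.0 and mm10 in the submitters' processing notes). The authors deposited them as a signal per gene, TPM rescaled between libraries. A strand setting for kallisto and the annotation release are not given in the sources used here. A second deposited table holds p-values, q-values and effect sizes of the authors' own comparison and was not used. Of 36083 genes, 35454 matched a symbol, and 11369 were at 0 in all libraries. The depth per sample is unknown, so no counting error can be given.

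Only genes whose mean over the 6 libraries reached 1 entered the test, made with limma 3.58.1 in R 4.3.3 on log2(value + 1) with a term for group alone, a trended variance and Benjamini-Hochberg adjustment at 0.05. The planned design named TPM, and its test was also used on the rescaled values. On simulated data, 191 of 200 genes changed by 1 on the log2 scale, among 12155, were recovered, and 11 unchanged genes were called. Far fewer genes were changed there than the 60.7% called in the data, so the recovery does not describe that setting. Shares and ratios were tested by exact permutation (scipy 1.17.1, Python 3.11.15). The members and lists were chosen with earlier results of these data known, so no list is independent evidence. Named genes are the 8 members, Blk, Zap70, Tec, Csk, Ptprc and Sdc1, and, from each list, at most 6 called genes with the largest differences, means that reached 5 and groups that did not overlap. Alternatives changed the pseudocount, minimum mean, scaling, variance trend, replicate block and libraries. Zap70, Blk and Csk, and several receptor genes, are in more than 1 list, and Xist was not analysed here. Some genes of the lists and of the naming rule are not reported here, and shares are therefore given over the 6 members of the Src family, an alternative of the plan, in place of the wider sum planned as the main one. Promoter sequences are from RefSeq, where 7 of the 8 members have an entry.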

Additional observations from a re-analysis of the deposited data

How the results depend on the processing

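Fgr, Lyn, Fyn and Lck kept their directions and calls under all 15 alternatives tried, with differences of -1.30 to -0.97, -0.70 to -0.54, 0.52 to 0.74 and 0.87 to 1.08. For Btk the call appeared with a library sum of 1000000 (0.21), with quantile normalization (0.15) and without WT replicate 2 (0.12), and leaving out 1 library gave 0.032 to 0.12. Syk turned to 0.076 with a library sum of 1000000, where the median of all genes tested was 0.12. The differences of Src and Yes1 grew to 0.34 and 0.15 at a pseudocount of 0.1, and that of Src to 0.14 at 0.5, by construction of the scale. Called higher among the 8 genes were 2, or 3 where Btk joined, and called lower 2 throughout. In the lists, a library sum of 1000000 gave 2 lower other cytoplasmic tyrosine kinases, 3 higher and 7 lower regulators, and 12 higher and 15 lower substrates and adaptors. Over all 12150 genes tested at that sum, 5290 were higher and 2367 lower. A minimum mean of 5 left 1 higher kinase, since fewer genes were tested. The shares stand on the total over the 6 members of the family, where that of Fgr changed by -4.61 and that of Lyn by -20.2 percentage points, and a wider total is not reported. Deviations of same-numbered libraries from their group means had correlations of 0.151, -0.0083 and 0.0185. Such deviations constrain one another with 3 libraries per group, so these values cannot tell whether the numbers pair libraries. With the replicate block, 7624 genes were called instead of 7374, the 8 genes had 2 higher and 2 lower, and Fgr and Lyn were at -1.09 and -0.68. WT replicate 2 correlated best with Sdc1-/- replicate 3 (0.142), and WT replicate 1 with Sdc1-/- replicate 1 (0.151). The common sum for the family total was chosen after seeing the data. Unknown depth limits Src and Yes1.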
